A study of Mus musculus with 12 samples.

Results

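The 32 genes described here encode the enzymes of fatty acid oxidation, the acyl-CoA thioesterases and the regulators that act on them, and they are 32 of the 46095 rows of the deposited count table. They were chosen by name from the pathway, with the difference between the genotypes already known from these libraries, so what they show in that comparison is a description and not an independent test. All 32 passed the filter on low counts and were among the 13743 genes tested. There were 12 pancreas libraries from mice aged 56 days after birth. Of these, 6 were wild type on C57BL/6J (WT 1 to 6), and the other 6, AMKO 1 to 6, had the genotype Axl-/-Mertk-/- and so lacked the receptor tyrosine kinases AXL and MERTK. Both genotypes had acute pancreatitis, induced by giving caerulein, a cholecystokinin analogue that overstimulates acinar cells, every hour into the peritoneum, 10 times at 100 µg/kg, and the tissue was taken 12 h from the first dose. No untreated pancreas was analysed here. The sources used here name neither the strain of the AMKO mice nor the mouse behind each sample, so p-values measure only the spread between these samples. In bulk tissue, fewer cells of a type and less RNA per cell cannot be told apart.

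In beta-oxidation, an acyl-CoA is carried into the mitochondrion on carnitine and shortened in repeated rounds of dehydrogenation, hydration, a further dehydrogenation and thiolysis, and the electrons pass to the respiratory chain through the electron transfer flavoprotein. Peroxisomes run a parallel pathway for very long and branched chains, and thioesterases cut acyl-CoA back to free fatty acid and coenzyme A. The nuclear receptor PPAR-alpha and its coactivator PGC-1-alpha switch on many of these genes in liver, heart and muscle during fasting, and Acot1, Acot2, Acaa1a, Ech1 and Pdk4 are among the PPAR-alpha targets known from mouse tissues.

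Among the 32 genes, the largest fold changes that passed the test were those of Acot1 and Acot2, a pair of near-identical neighbours on chromosome 12. ACOT1 is a cytosolic thioesterase and ACOT2 a mitochondrial one. Their coding sequences are shown because a read can match both genes. They were read from the GENCODE M21 annotation of GRCm38, 5′ to 3′, from the start codon to the same aligned base, and capitals mark the bases that Acot2 has in addition or at which the sequences differ.
Acot2: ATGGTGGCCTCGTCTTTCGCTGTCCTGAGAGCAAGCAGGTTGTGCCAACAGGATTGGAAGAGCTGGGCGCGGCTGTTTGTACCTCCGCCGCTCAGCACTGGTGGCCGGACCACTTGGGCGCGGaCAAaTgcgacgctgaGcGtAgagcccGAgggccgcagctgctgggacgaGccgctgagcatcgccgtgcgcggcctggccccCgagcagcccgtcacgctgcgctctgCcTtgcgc
Acot1: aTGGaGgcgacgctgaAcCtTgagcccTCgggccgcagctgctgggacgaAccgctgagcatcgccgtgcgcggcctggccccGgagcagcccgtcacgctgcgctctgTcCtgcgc
Acot2 is longer at its start by 123 bases, or 41 codons. It has 453 codons against 419 in Acot1. Of the 1257 coding bases of Acot1 1236 aligned to Acot2, so the start is not the only difference in length. Over the 1236 aligned bases of the whole coding sequences 1178 were identical, which is 95.3%, and the longest run without a difference was 273 bases.

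The windows at the transcription starts of Acot1 and Acot2 are shown because both genes were higher in AMKO. Each runs from 250 bases before to 50 after the start in RefSeq on GRCm38.p6, on the plus strand, at chr12:84009252-84009551 for Acot1 and chr12:83987611-83987910 for Acot2. Capitals would mark AGGTCA, the core that PPAR-alpha and related nuclear receptors bind, on either strand, and neither window held it.
Acot1: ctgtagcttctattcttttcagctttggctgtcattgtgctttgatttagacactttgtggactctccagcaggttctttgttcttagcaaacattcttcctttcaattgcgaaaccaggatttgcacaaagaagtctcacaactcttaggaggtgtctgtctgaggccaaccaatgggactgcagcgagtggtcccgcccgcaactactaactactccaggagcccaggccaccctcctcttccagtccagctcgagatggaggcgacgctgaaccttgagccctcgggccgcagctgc
Acot2: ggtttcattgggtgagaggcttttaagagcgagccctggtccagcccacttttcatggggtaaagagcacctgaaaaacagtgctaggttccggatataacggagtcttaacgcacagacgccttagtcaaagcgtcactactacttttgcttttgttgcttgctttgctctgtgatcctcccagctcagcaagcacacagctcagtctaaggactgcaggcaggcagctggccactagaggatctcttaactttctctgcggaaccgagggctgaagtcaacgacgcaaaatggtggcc
Aligned end to end, the windows had 178 identical bases in 354 columns, or 50.3%, so the strong likeness of the coding sequences was not seen upstream. A window was found for 28 of the 32 genes. AGGTCA, searched on both strands, was in 4 of these 28 windows and in 5340 of all 32851 windows in the table (16.3%). The 4 were Cpt1a, Acadm, Acadvl and Echs1, at 94, 249, 87 and 83 bases before the start. Also searched was a direct repeat of AGGTCA spaced by 1 base, with up to 1 mismatch over both copies. It was in none of the 28 windows and in 0.554% of all windows. Every such repeat holds at least 1 exact AGGTCA, so a window without AGGTCA cannot hold the repeat. None of the 6 windows of genes that passed the test held AGGTCA, and so none could hold the repeat. With so few windows and these shares over all windows nothing is read from that, and sites outside the windows were not searched.

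In AMKO pancreas 7 of the 32 genes rose and none fell, at an adjusted p under 0.05 by edgeR's quasi-likelihood test with Benjamini-Hochberg adjustment over all tested genes. The 7 were Acot1, Acot2, Ech1, Acaa2, Acaa1a, Etfb and Ppargc1a. Of all tested genes, 2.41% were called higher and 3.37% lower, 5.78% in all, and since the list was drawn up with this contrast known nothing is read from its larger share. In 5 of the 7 every AMKO library lay above every WT library, as for 1.24% of all tested genes, and in no member did every AMKO library lie below, as for 2.3%. The median log2 fold change, AMKO minus WT, was 0.06 over the 32 genes and -0.00 over all tested genes. Over the 25 genes that were not called it was also -0.00, with 12 fitted above 0 and 13 below with TMM scaling. The gene called with the highest adjusted p was Ppargc1a (0.0471), and the nearest that missed was Acot9 (0.144).

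**Figure D1:**
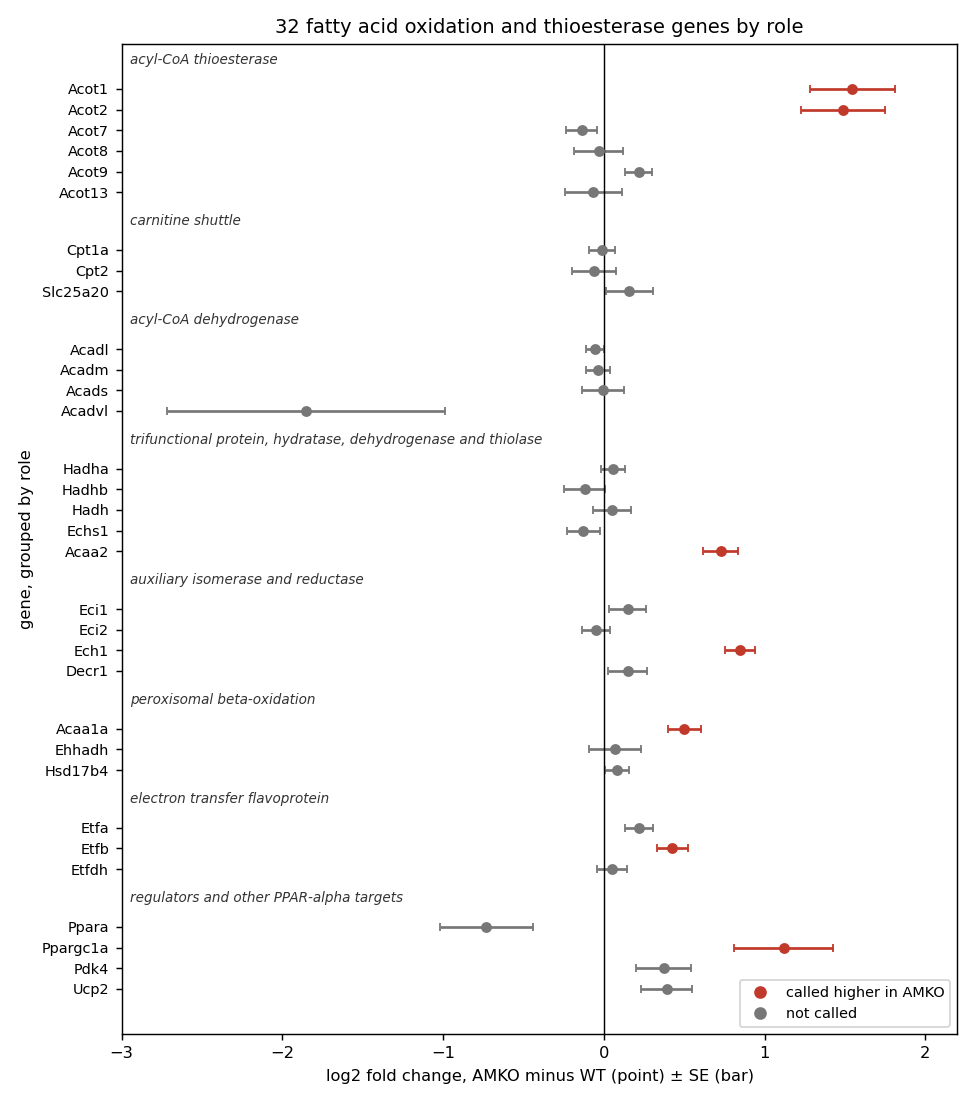
Fitted log2 fold change of each of the 32 genes, AMKO minus WT (horizontal axis, points, with bars of 1 SE), grouped by role, with 6 libraries per genotype. The 7 genes in red passed the test and lie above 0; most others lie close to 0, and Acadvl has the widest bar (SE 0.86).

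Of the 6 thioesterases, the pair on chromosome 12 rose and the other 4 did not pass. Levels are given as CPM, read counts scaled to a fixed library total with TMM-scaled library sizes. Acot1 had a lowest, median and highest value of 1.80, 3.45 and 4.48 CPM in WT and 6.20, 9.25 and 15.7 CPM in AMKO. Its group means were 3.36 ± 0.996 and 9.82 ± 3.65 CPM (SD, n = 6), and its log2 fold change was 1.55 (SE 0.26, edgeR adjusted p = 0.00454). No AMKO library came down to the highest WT library, and WT 4 and AMKO 4 were the lowest of their genotypes. Acot2 had 1.72, 2.71 and 4.48 CPM in WT and 4.50, 7.99 and 11.5 CPM in AMKO. Its means were 2.82 ± 0.967 and 7.90 ± 2.56 CPM (SD, n = 6), with a log2 fold change of 1.49 (SE 0.26, edgeR adjusted p = 0.00521). Here the groups were only just apart, since WT 3 and AMKO 4 nearly touched. Both genes rest on few reads, 24 to 60 counts per WT library for Acot1 and 23 to 55 for Acot2.

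Of the 50-base windows along its transcripts, Acot1 shares 13.6% with Acot2 and Acot2 shares 24.5% with Acot1, and the sources used here do not say how reads with several matches were counted. Taken separately the genes are therefore uncertain. With their counts summed into 1 gene, a step added after the data had been seen, the log2 fold change was 1.52 (SE 0.23, edgeR adjusted p = 0.00211). With only WT 4 to 6 as controls Acot1 missed the threshold (adjusted p = 0.0618, log2 fold change 1.62). With only WT 1 to 3 as controls Acot2 missed it (adjusted p = 0.0782, log2 fold change 1.37).

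**Figure D2:**
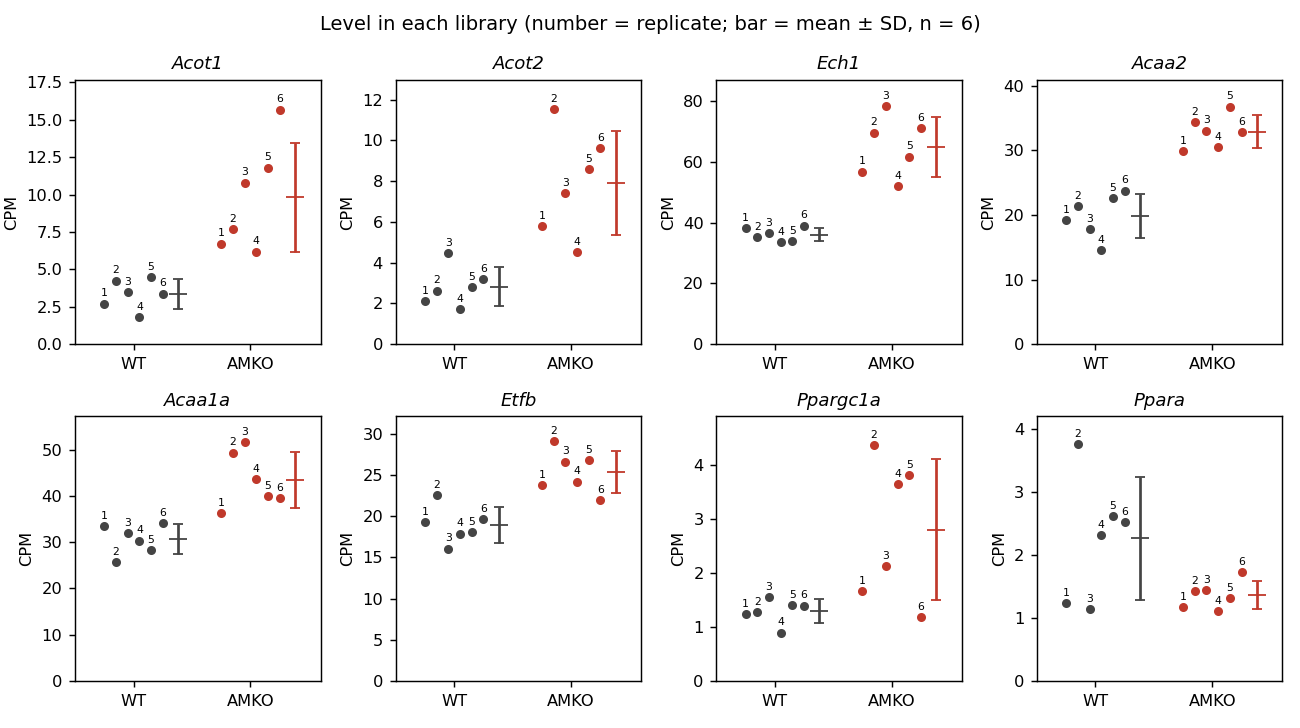
Level in CPM (vertical axes, each from 0) of 8 of the genes in every library, numbered by replicate, with the mean ± SD of 6 libraries beside each genotype. In Acot1, Acot2, Ech1, Acaa2 and Acaa1a every AMKO point lies above every WT point, whereas Etfb, Ppargc1a and Ppara overlap.

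The other thioesterases differed less. Acot9, a mitochondrial thioesterase, had 73.3, 84.6 and 92.7 CPM in WT and 82.5, 99.0 and 107.5 CPM in AMKO, with a log2 fold change of 0.22 (SE 0.08, edgeR adjusted p = 0.144). Its groups overlapped, and it shares 15.2% of its windows with Acot10, which had at most 2 counts in any library. Acot7, a cytosolic thioesterase abundant in brain, had a log2 fold change of -0.14 (adjusted p = 0.418). Acot8, the peroxisomal thioesterase, was at -0.03 (0.925), and Acot13, which acts at mitochondria, at -0.06 (0.865). Scaled to the length of its exons, Acot9 had by far the highest level of the family in WT, 36.8 ± 3.27 CPM per kb (SD, n = 6), against 0.857 ± 0.254 for Acot1 and 1.28 ± 0.440 for Acot2. In AMKO, Acot1 reached 2.51 ± 0.930 and Acot2 3.60 ± 1.17 CPM per kb, near Acot8 at 2.97 ± 0.493.

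The neighbourhood on chromosome 12 was read from the same fit. Acot2 (chr12:83987861-83993873) and Acot1 (chr12:84009490-84018371) both lie on the plus strand. Within 500 kb of the pair 18 other genes were tested and none passed, beside 5.78% of all tested genes, so nothing is read from that count. The lowest adjusted p among the 18 was that of Dnal1 (log2 fold change -0.48, SE 0.14, edgeR adjusted p = 0.0618). On one side the nearest tested gene was Numb, an inhibitor of Notch signalling, which had 38.1 ± 4.71 CPM in WT and 36.7 ± 3.09 CPM in AMKO (SD, n = 6). On the other it was Acot4, a further thioesterase of the cluster, with 1.68 ± 0.889 and 2.23 ± 0.607 CPM, a log2 fold change of 0.40 (SE 0.36) and an adjusted p of 0.551. Acot3, which belongs to the same cluster, had at most 2 counts in any library and was not tested.

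**Figure D3:**
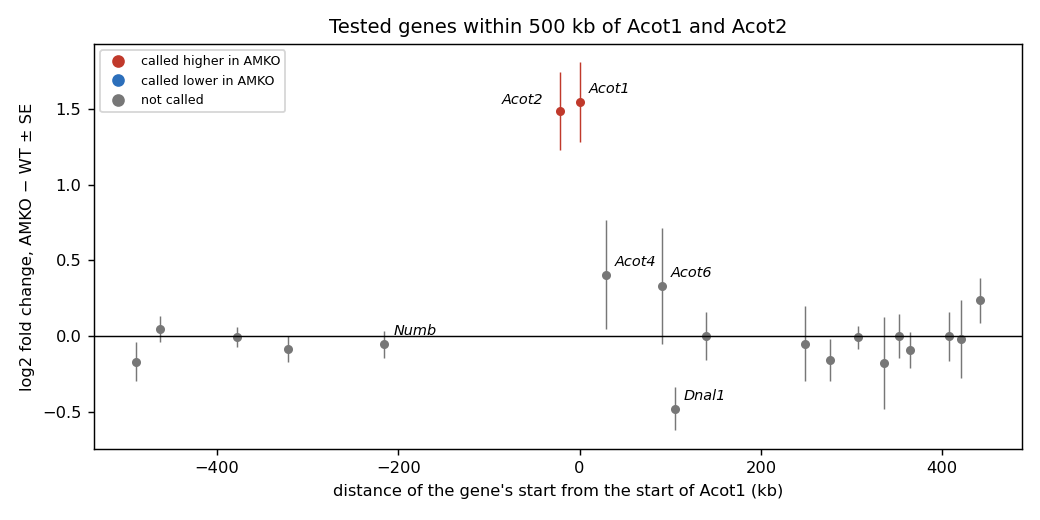
Log2 fold change with SE, AMKO minus WT, of the 20 tested genes within 500 kb of Acot1 and Acot2, against the distance of each gene's start from the start of Acot1 in kb. Acot1 (1.55) and Acot2 (1.49) stand far above the 18 neighbours, none of which passed the test, as 5.78% of all tested genes did.

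The carnitine shuttle showed no call. Cpt1a makes acylcarnitine at the outer mitochondrial membrane and sets the pace of entry. It had 89.7, 113 and 119.8 CPM in WT and 96.2, 112 and 119 CPM in AMKO, with a log2 fold change of -0.01 (SE 0.08, edgeR adjusted p = 0.945). The ranges lay almost on top of each other. Cpt2, which turns acylcarnitine back into acyl-CoA inside the mitochondrion, was at -0.06 (SE 0.14), and Slc25a20, the carrier between them, at 0.16 (SE 0.14, adjusted p = 0.559).

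None of the 4 acyl-CoA dehydrogenases, which carry out the first step of each round, was called. Acadl, Acadm and Acadvl were fitted below 0, and Acads, which was at -0.00 with TMM scaling, was at 0.01 with RLE scaling. With only WT 1 to 3 as controls the direction turned for Acadvl (0.55), Acadm (0.03) and Acads (0.17). Acadl, for long chains, had the highest level per length of all 32 genes in WT, 37.8 ± 2.27 CPM per kb (SD, n = 6). It was also the steadiest, with an SD of 0.07 on the log2 CPM scale within genotypes and a log2 fold change of -0.05 (SE 0.06). Acadm, for medium chains, was at -0.04 (SE 0.08), and Acads, for short chains, had an SE of 0.13. Acadvl, for very long chains, had 0.142, 1.10 and 9.06 CPM in WT and 0.147, 0.595 and 1.95 CPM in AMKO. Its log2 fold change of -1.85 had an SE of 0.86 and an edgeR adjusted p of 0.227. WT 5 and WT 6 were the highest, at 9.06 and 6.05 CPM, and the remaining WT libraries were no higher than the highest AMKO library. Acadvl had only 2 to 97 counts in any library, and 1151 bases of its exons overlap those of Dvl2, a gene of Wnt signalling, so its level here is uncertain.

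Of the 5 enzymes of the later steps, 1 rose. Acaa2, the thiolase that releases acetyl-CoA at the end of each mitochondrial round, had 14.5, 20.3 and 23.8 CPM in WT and 29.9, 33.0 and 36.8 CPM in AMKO. Its means were 19.9 ± 3.41 and 32.9 ± 2.56 CPM (SD, n = 6), and the log2 fold change was 0.73 (SE 0.11, edgeR adjusted p = 0.00237). The groups were well separated, and no 50-base window of Acaa2 is shared with another gene. Hadha and Hadhb encode the subunits of the trifunctional protein, which performs the same last steps on long chains. Hadha had a log2 fold change of 0.06 (SE 0.08) and Hadhb of -0.12 (SE 0.13), the latter with 18.1% of its windows shared with Gm13910. Hadh, which dehydrogenates shorter hydroxyacyl-CoA, was at 0.05 (SE 0.12), and the hydratase Echs1 at -0.13 (SE 0.10, adjusted p = 0.509). The thiolase therefore stood apart in fitted value from the 4 others, whose groups all overlapped.

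Among the auxiliary enzymes, which deal with double bonds of unsaturated chains, Ech1 rose and 3 did not pass. Ech1 is a dienoyl-CoA isomerase of mitochondria and peroxisomes. It had 33.5, 35.9 and 39.1 CPM in WT and 52.1, 65.8 and 78.4 CPM in AMKO. Its means were 36.1 ± 2.25 and 65.0 ± 9.80 CPM (SD, n = 6), a log2 fold change of 0.85 (SE 0.10) with the smallest edgeR adjusted p of the 32 genes, 0.000274. The 6 WT libraries lay within a narrow band and all AMKO libraries were clearly above it. The isomerases Eci1 and Eci2 were at 0.15 (SE 0.12) and -0.05 (SE 0.09), and the reductase Decr1 at 0.15 (SE 0.12, adjusted p = 0.512).

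Ech1 (chr7:28825217-28832247) is the only 1 of the 32 genes within 10 Mb of Axl or Mertk, at 3.04 Mb from Axl. Within 10 Mb of Axl, 6 of 265 tested genes were called, which is 2.26%. Within 10 Mb of Mertk, where none of the 32 genes lies, 38 of 179 were called, which is 21.2%, with 13 higher and 25 lower. Besides Axl and Ech1, the genes called near Axl were Hnrnpl, Phldb3, Ppp1r13l and Ppp1r37, named after their values were seen. Hnrnpl, which encodes an RNA-binding splicing regulator, starts 3.05 Mb from the start of Axl, next to Ech1 at 3.07 Mb. It went the other way, with a log2 fold change of -0.35 (SE 0.08, edgeR adjusted p = 0.0253). Loss of the receptors and the chromosome segment inherited with the Axl allele cannot be told apart for Ech1. Etfb lies 17.7 Mb from Axl on the same chromosome, and Acaa2, Acaa1a, Ppargc1a, Acot1 and Acot2 lie on chromosomes other than those of Axl and Mertk. Since the strain of the AMKO mice is not named, a strain difference, loss of AXL and loss of MERTK cannot be told apart for any of the called genes.

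**Figure D4:**
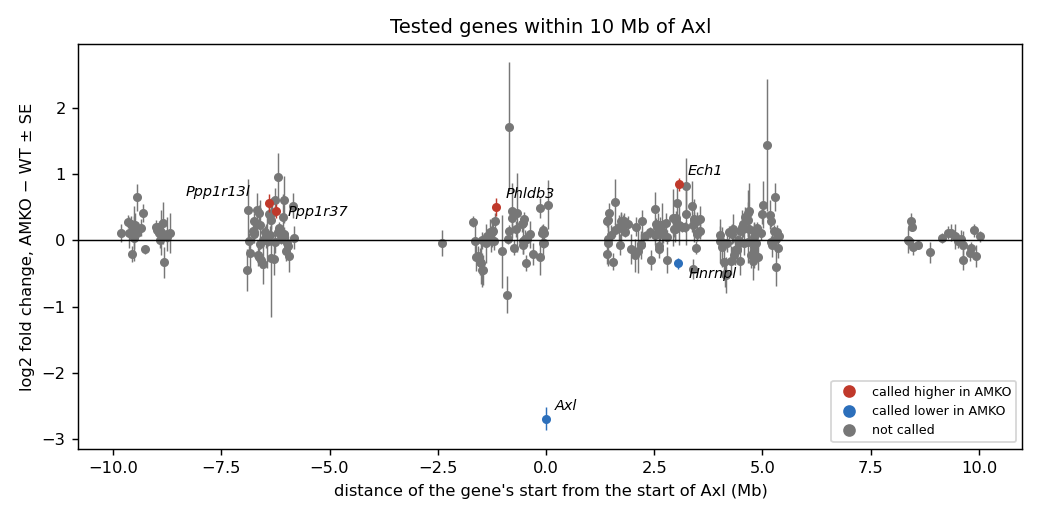
Log2 fold change with SE, AMKO minus WT, of the 265 tested genes within 10 Mb of Axl, against the distance of each gene's start from the start of Axl in Mb. Ech1 (0.85) rose and its neighbour Hnrnpl (-0.35) fell, and most genes around them lie near 0.

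In the peroxisomal pathway Acaa1a, the thiolase, rose and the 2 bifunctional enzymes did not pass. Acaa1a had 25.6, 31.1 and 34.2 CPM in WT and 36.3, 41.8 and 51.6 CPM in AMKO. The means were 30.6 ± 3.24 and 43.4 ± 6.00 CPM (SD, n = 6), a log2 fold change of 0.50 (SE 0.10, edgeR adjusted p = 0.0109). AMKO 1, the lowest of its genotype, lay above WT 6, the highest of the other. Acaa1a shares 12.4% of its windows with Acaa1b, which had at most 15 counts in any library, and 290 bases of its exons overlap Myd88, an adaptor of Toll-like receptors that had a log2 fold change of 0.02 (adjusted p = 0.933). It did not pass against WT 4 to 6 (adjusted p = 0.0899) or WT 1 to 3 (0.0936) alone, with fold changes of 0.50 and 0.52 on the log2 scale. Ehhadh was at 0.07 (SE 0.16) and Hsd17b4 at 0.08 (SE 0.08).

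All 3 genes of electron transfer from the dehydrogenases were fitted above 0, and 1 was called. Etfb, the beta subunit of the flavoprotein, had 16.1, 18.7 and 22.6 CPM in WT and 22.0, 25.4 and 29.1 CPM in AMKO. Its log2 fold change was 0.43 (SE 0.10, edgeR adjusted p = 0.0204), and the groups overlapped only by WT 2 and AMKO 6. Etfa, the alpha subunit, had 24.8, 29.0 and 34.9 CPM in WT and 29.1, 34.8 and 36.8 CPM in AMKO, with 0.22 (SE 0.09, adjusted p = 0.153). Per length the subunits had like levels in WT, 16.0 ± 1.80 CPM per kb for Etfa and 16.3 ± 1.88 for Etfb (SD, n = 6). Etfdh, which hands the electrons on to ubiquinone, was at 0.05 (SE 0.10). Etfb shares 43.8% of its windows with Gm45233, a gene that overlaps its exons, so its counts are uncertain. Its call was also lost without AMKO 2 or AMKO 3, with an adjusted p of up to 0.0553, and over all fits without 1 library its log2 fold change was 0.38 to 0.49. With only WT 4 to 6 as controls it was 0.47 (adjusted p = 0.0684), and with only WT 1 to 3 it was 0.39 (0.168).

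Among the regulators, Ppargc1a rose and Ppara did not pass. Ppargc1a, which encodes PGC-1-alpha, had 0.898, 1.34 and 1.55 CPM in WT and 1.19, 2.89 and 4.37 CPM in AMKO. Its means were 1.29 ± 0.223 and 2.80 ± 1.31 CPM (SD, n = 6), a log2 fold change of 1.12 (SE 0.31, edgeR adjusted p = 0.0471). AMKO 2, AMKO 4 and AMKO 5 were highest and AMKO 6 lay within the WT range. It rested on 11 to 55 counts per library, and leaving out any 1 library ended the call in 10 of 12 cases, with an adjusted p of up to 0.116. Ppara, which encodes PPAR-alpha itself, had 1.14, 2.42 and 3.76 CPM in WT and 1.10, 1.38 and 1.73 CPM in AMKO. Its log2 fold change was -0.73 (SE 0.29, edgeR adjusted p = 0.151), with WT 1 and WT 3 inside the AMKO range. These were the lowest levels per length of the 32 genes in WT, 0.196 ± 0.0338 CPM per kb for Ppargc1a and 0.591 ± 0.254 for Ppara (SD, n = 6).

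Pdk4 encodes a kinase that shuts off pyruvate dehydrogenase when fat is burned. It had 38.4, 58.6 and 70.4 CPM in WT and 59.1, 65.1 and 108 CPM in AMKO, and its log2 fold change was 0.37 (SE 0.17, edgeR adjusted p = 0.221). AMKO 6 gave the highest value, AMKO 4 was next at 74.7 CPM, and the other 4 AMKO libraries lay within the WT range. Ucp2, a carrier of the inner mitochondrial membrane, had 52.7, 70.2 and 83.7 CPM in WT and 62.8, 89.4 and 123 CPM in AMKO, with 0.39 (SE 0.16, adjusted p = 0.164) and overlapping groups.

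**Figure D5:**
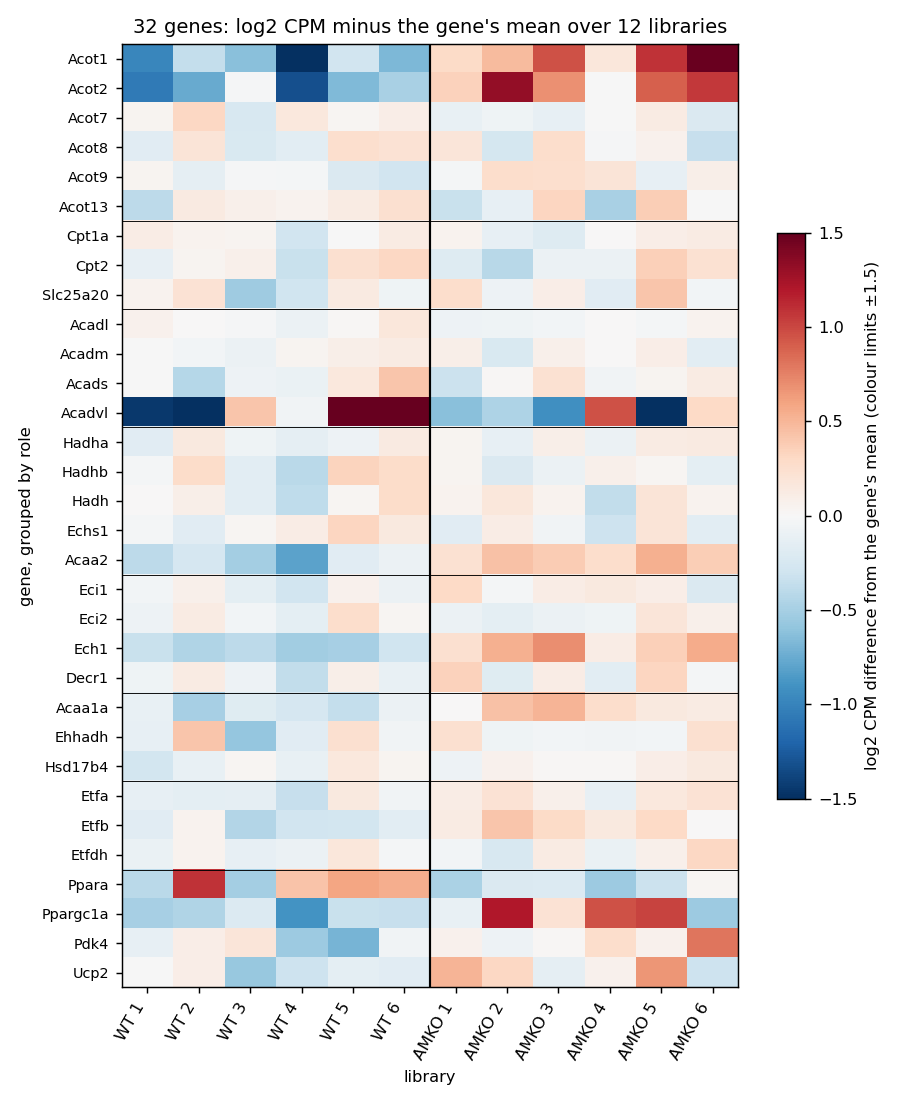
Log2 CPM of each of the 32 genes (rows, grouped by role) in each of the 12 libraries (columns), minus the gene's mean over the 12, with colours limited to ±1.5. Acot1, Acot2, Ech1 and Acaa2 change colour at the line between the genotypes, Acadvl varies most within a genotype, and most other rows are pale throughout.

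Within a genotype the values of these genes do not rest on the contrast that chose them, so 3 pairs were compared over the 6 libraries of each genotype, 12 tests in all. Acot1 and Acot2 had Pearson's r of 0.638 in WT (exact permutation p = 0.167) and 0.592 in AMKO (p = 0.211), with Spearman's rho of 0.543 (p = 0.297) and 0.657 (p = 0.175). Hadha and Hadhb, which are transcribed away from each other and whose start windows overlap by 228 bases, had r of 0.645 (p = 0.175) and 0.14 (p = 0.744), with rho of 0.429 (p = 0.419) and -0.0857 (p = 0.919), all by exact permutation. Pdk4 and Acot1 had r of 0.243 (p = 0.653) and 0.56 (p = 0.281), with rho of 0.0857 in each genotype (p = 0.919), by the same exact test. No adjusted p was below 0.594. The r of Acot1 and Acot2 may also be altered by reads that match both genes, since how such reads were counted is not known. Without the 2 libraries farthest from the median of the first gene, r of Acot1 and Acot2 was 0.348 in WT and 0.179 in AMKO, of Hadha and Hadhb 0.342 and -0.495, and of Pdk4 and Acot1 0.729 and 0.232.

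The rest of fatty acid metabolism was read from 116 further genes, of which 97 were tested, and 3 rose and 4 fell, 7.22% of those tested. Their median log2 fold change was 0.01. Crat, which moves short acyl groups onto carnitine, had 26.9 ± 2.91 CPM in WT and 33.9 ± 2.38 CPM in AMKO (0.33, SE 0.08, edgeR adjusted p = 0.0323). Hilpda, a hypoxia-induced protein that blocks lipid droplet breakdown, rose from 41.9 ± 7.32 to 67.0 ± 19.6 CPM (0.68, SE 0.18, adjusted p = 0.0383). Tomm20, a receptor for mitochondrial protein import listed with the citrate cycle and respiratory chain, rose from 66.1 ± 6.35 to 81.4 ± 5.67 CPM (0.30, SE 0.08, adjusted p = 0.0314), the only call among the 19 genes of that list. These 3 calls depended on single libraries, since leaving out 1 library ended that of Hilpda in 7 of 12 cases, of Tomm20 in 7 and of Crat in 6.

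The 4 genes that fell were 2 of fatty acid synthesis, 1 thioesterase and 1 peroxisomal transporter. Scd2, a stearoyl-CoA desaturase, had 166 to 246 CPM across WT and 91.1 to 129 CPM across AMKO, with no overlap between the groups (-0.80, SE 0.11, edgeR adjusted p = 0.00145). Acly, which makes cytosolic acetyl-CoA from citrate, had 195 ± 10.5 CPM in WT and 162 ± 8.91 CPM in AMKO, also without overlap (-0.27, SE 0.06, adjusted p = 0.0238). These were 2 of the 11 genes listed for fatty acid synthesis, and the other 9 did not pass. Acot11, a thioesterase with a lipid-binding START domain, went from 16.8 ± 1.96 in WT to 12.2 ± 1.29 CPM (-0.46, SE 0.10, adjusted p = 0.0206). Abcd3, a transporter that brings acyl-CoA into peroxisomes, dropped to 37.2 ± 3.70 CPM in AMKO from 45.1 ± 2.61 in WT (-0.28, SE 0.07, adjusted p = 0.0421), and in 10 of 12 cases leaving out a library ended its call. The same step ended the call of Acly in 4 cases, of Acot11 in 3 and of Scd2 in none.

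Several other enzymes, transporters and receptors of fatty acid use were not called. Echdc2, a member of the enoyl-CoA hydratase family, had 36.1 ± 5.53 CPM in WT and 44.2 ± 6.45 CPM in AMKO (0.29, edgeR adjusted p = 0.157). The list of 15 further mitochondrial and ketone body enzymes that holds it had no call. Acsl1, which activates long fatty acids, was at -0.17 (adjusted p = 0.364), the fatty acid receptor Cd36 at -0.00 (0.991) and Pparg, the adipocyte member of the PPAR family, at -0.35 (0.385). Cpt1b, the muscle carnitine palmitoyltransferase, had at most 3 counts and Angptl4, a secreted inhibitor of lipoprotein lipase, at most 59, and neither was tested. Since these genes come from the same contrast and the same libraries as the 32, the counts are set side by side without a test between the lists.

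Library totals ran from 10668637 to 15184371 counts, and 18548 to 20596 genes were detected. Axl had 58.9 ± 12.3 CPM in WT and 9.09 ± 2.21 CPM in AMKO (SD, n = 6), whereas Mertk did not separate the genotypes (log2 fold change -0.03, edgeR adjusted p = 0.968) and the sources used here do not say which part of Mertk the allele lacks. Xist, which marks female tissue, was at 641 to 982 CPM in WT 2, WT 4 and WT 5 and at most 3.855 CPM in the other WT libraries. In AMKO 1, AMKO 3 and AMKO 6 it was at 597 to 1018 CPM, and at most 1.104 CPM in the other AMKO libraries. Each genotype may therefore mix the sexes. With Xist as a covariate the same 7 of the 32 genes were called. Acinar markers summed to 102100 to 206200 CPM, with Prss2 listed at 0 in every library. The housekeeping gene Gapdh had only 12.1 to 24.9 CPM, and low CPM here may therefore not mean a low transcript level. The 8 adipocyte markers, which could bring fatty acid enzymes of their own, summed to 92.8 to 553 CPM in WT and 55.9 to 390.5 CPM in AMKO, highest in WT 5, AMKO 1 and WT 2, and none was called. The 3 brown adipocyte markers summed to 2.77 to 3.27 CPM in WT and 3.58 to 5.95 CPM in AMKO, nearly all from Cidea (0.62, SE 0.18, edgeR adjusted p = 0.0518), while Ucp1 had at most 7 counts and Elovl3 at most 2. The 7 hepatocyte markers found in the table summed to 2.84 to 42.0 CPM in WT and 23.5 to 54.95 CPM in AMKO. Alb, the marker of hepatocytes, had 2 to 7 counts in WT 1 to 3 and at least 141 in every other library. Of 6 enterocyte markers Sis and Cdx1 were at 0 throughout, and the 4 muscle markers summed to 8.51 to 33.4 CPM in WT and 6.20 to 33.95 CPM in AMKO. The 7 leukocyte markers summed to 166 to 861 CPM in WT and 228 to 1191 CPM in AMKO, lowest in WT 3, AMKO 6, WT 6 and AMKO 3. Duct and islet markers held no call, and of 3 endothelial markers Kdr fell (-0.83, SE 0.15, edgeR adjusted p = 0.00752). With the mean of the adipocyte, leukocyte or acinar markers as a covariate, Acot1, Acot2, Ech1, Acaa2, Acaa1a and Etfb were called in each of the 3 fits, and Ppargc1a was not called with the adipocyte covariate (adjusted p = 0.0817). Without the 4 libraries lowest in leukocyte markers, a step added after the data had been seen, Acot1 (1.30, adjusted p = 0.0911), Acaa1a (0.52, 0.0859), Etfb (0.41, 0.1499) and Ppargc1a (1.48, 0.0761) were not called, while Ech1, Acaa2 and Acot2 were. In that fit 0.705% of all tested genes were called, against 5.78% with all libraries. The part of the brown adipocyte and hepatocyte markers was not tested.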

How the data were processed

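RNA from 12 pancreas samples was extracted with Trizol and checked for integrity, per the labels' protocols. Reads were aligned with HISAT2 2.0.4 to mm10, per the submitters' processing notes. Not given in the sources used here are the counter, its annotation, its strand setting and its rule for multiply matching reads. The authors deposited raw counts per gene in 1 table, and every column was matched to a sample by title.

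Those counts were compared between AMKO and WT with the quasi-likelihood F test of edgeR 4.0.16, run in R 4.3.3, with TMM scaling, filterByExpr and Benjamini-Hochberg adjustment over all genes tested, at an adjusted p under 0.05. Fold changes are log2, AMKO minus WT. Replicate libraries had chi-square values of 9.15 to 66.62 per degree of freedom, well over sampling noise, and none was merged. The procedure was also run on counts simulated from its own fitted model. Such counts lack shared reads and differences between libraries outside that model, so nothing is read from that run. Positions, exon overlaps and 50-base windows shared between genes came from GENCODE M21 on GRCm38, the assembly mm10 names. Correlations used log2 CPM (prior count 2) and SciPy 1.17.1.

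The genes and all lists were chosen with earlier results of these data known. Named are the 32 genes, every called gene of the further lists or, with none, their 2 most abundant, a fixed set of further pathway genes, the nearest tested genes beside Acot1 and Acot2, and library checks. Some genes this rule takes are not reported here. Alternatives were other scalings, filters, DESeq2 1.42.0, limma 3.58.1 voom, covariates, a replicate block and left-out libraries.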

Additional observations from a re-analysis of the deposited data

Results flagged for a closer look

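In 4 of the 64 sets of 6 libraries (32 genes in 2 genotypes), 1 library stood far from its group, by a gap over 0.625 of the group's range. Chance gives about 1 in 20 such sets. Acot13 in WT 1 had 4.192 CPM, below the next lowest WT library at 5.763 CPM. Cpt1a in WT 4 had 89.67 CPM, with the next lowest at 109.6 CPM. Hadh in AMKO 4 had 15.79 CPM, with the next lowest at 21.09 CPM. Pdk4 in AMKO 6 had 108.4 CPM, with the next highest at 74.71 CPM. None of these 4 genes was called between the genotypes with or without that library.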

How the results depend on the processing

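Signs were compared for the 32 genes and for the further genes called in TMM-scaled edgeR on all libraries. None of these that was called, there or in an alternative, changed sign, whereas uncalled ones such as Acadvl did. The other named genes were not compared in this way. Ech1 and Acaa2 passed in all 12 fits that left out 1 library and in all 17 other settings; Acot1, Acot2 and Acaa1a passed in all 12. The number of the 32 genes called higher was 3 against WT 4 to 6 alone, 3 against WT 1 to 3 alone and 3 without WT 3, WT 6, AMKO 3 and AMKO 6 (the libraries with the fewest leukocyte counts, chosen after seeing the data). It was 5 to 7 in fits without 1 library (5 without AMKO 2 or AMKO 3), and 6 without WT 2, WT 5 and AMKO 1, those richest in adipocyte markers, or without Ech1 as a gene near Axl, both also chosen later. None was called lower in any setting. The share of all tested genes called, in either direction, moved with the setting. It was 5.78% in edgeR on all libraries, 1.17% against WT 4 to 6 and 1.62% against WT 1 to 3. Without WT 3, WT 6, AMKO 3 and AMKO 6 it was 0.705%. Without 1 library it ran from 2.95% to 8.22%, with DESeq2 it was 9.67% and with voom 12.1%. Nothing is therefore read from changes in the counts of the 32 genes or of the further genes. Ppargc1a was lost in 7 of the 17 other settings. Acot9 was called without AMKO 5 and with voom, Ucp2 with the adipocyte or leukocyte covariate. Of the 97 further genes, the number called higher was 1 with no count filter, 6 with DESeq2 with or without its independent filtering, 11 with voom, 5 with the replicate block, 0 against WT 4 to 6, 6 with the leukocyte covariate and 5 with the acinar covariate. The number called lower was 2 with no filter, 7 with voom, 1 against WT 4 to 6 and 2 against WT 1 to 3. Without the 3 adipocyte-rich libraries 1 was higher and 2 lower, and without the 4 leukocyte-poor libraries 0 were higher and 1, Scd2, lower. Leaving out 1 library gave 0 to 5 higher (0 without AMKO 2 or AMKO 3) and 1 to 6 lower (1 without AMKO 3). The cause of these shifts was not tested. Libraries of the same number did not pair (r -0.16 to 0.346 between their deviations, over 0.1 in 4 of 6 pairs, best with their own number in 2); with the replicate block 6 of the 32 genes were higher. With few counts, as in Ppargc1a, Ppara, Acot1, Acot2 and Acadvl, precision is low.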
